A study of Mus musculus with 56 samples.

Results

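The genes described here are 7 matrix metalloproteinases (MMPs) and 3 of their tissue inhibitors (TIMPs). The MMPs are the gelatinases Mmp2 and Mmp9, the stromelysins Mmp3 and Mmp10, the macrophage metalloelastase Mmp12, the collagenase Mmp13 and the membrane-anchored Mmp14, and the inhibitors are Timp1, Timp2 and Timp3. They were taken from a list of gene symbols and are 10 of the 53819 genes listed in the tables of cancer-associated fibroblasts (CAFs), tumor cells and antibody-treated mice, and of the 55453 listed in the CD8 T cell response tables. In every one of the 10 tables each of the 10 genes had been tested and had an adjusted p-value.

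MMPs are zinc-dependent proteases that are made as inactive proenzymes and that cut collagens, elastin, other matrix proteins and some cytokines once the propeptide has been removed. TIMPs occupy the active site of MMPs and so hold matrix breakdown in check, and Timp3 also inhibits several ADAM proteases. In tumors, fibroblasts and macrophages are well-known sources of these enzymes, and several MMP promoters are classical targets of AP-1, the dimer of Fos and Jun proteins that growth factors and inflammatory cytokines switch on.

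MC38 cells, a mouse colon carcinoma line, were placed orthotopically in the rectum of female C57BL6 mice (C57BL/6J in the study's methods, 6 to 8 weeks old). The methods name MC38-luc cells for implantation and MC38-GFP cells for the tumor cell sort. Tumors were left untreated or were irradiated from day 9 to day 13 by short course radiotherapy (SCRT, 5 Gy in each of 5 daily fractions), and all were harvested on day 14, when the study sorted irradiated tumors by their size and luminescence into responding and nonresponding. CAFs (CD45- CD31- GFP- Podoplanin+ PDGFRa+ Ly6C+) and tumor cells (CD45- GFP+) were each taken from 5 tumors left untreated, 4 that responded and 6 that did not. CD8 T cells (CD45+ CD8+) were taken from 5 untreated, 6 responding and 4 nonresponding tumors, and 11 further CD8 T cell samples from mice that had SCRT with IgG or with anti-IFNAR, an antibody that blocks the type I interferon receptor. The labels do not say which tumors responded, and for CAFs the 2 irradiated groups were named from a figure title of the study, with the same group letters assumed for tumor cells. The CD8 T cell samples without antibody carry the same tumor numbers as the CAF and tumor cell samples. Their published split, 6 responding and 4 nonresponding, differs from the 4 and 6 of the other cells. Whether the numbers mean the same tumors is not stated. By their labels 5 of the antibody samples had IgG and 6 had anti-IFNAR, and the published legend has these numbers the other way round, so the size of each arm is unsettled. The model is 1 carcinoma line in 1 inbred strain, tumors were dissociated with collagenase before sorting, and the labels do not say whether samples of a group came from independent experiments.

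The tables hold no value per sample. They give the mean normalized read count over all libraries of a fit, a log2 fold change between 2 groups that was moderated toward 0, the Wald statistic (the unmoderated change over its standard error), and a p-value and adjusted p-value. The spread between replicates is therefore seen only through the Wald statistic, no library could be left out, and the depth of each library is unknown beyond the 25 M reads that the sample records give for each. Below, a positive log2 fold change is higher in the first group named, "called" means an adjusted p-value under 0.05, and a bracketed standard error is the log2 fold change divided by the Wald statistic, which is approximate because the fold change was moderated and the statistic was not. The CAF and tumor cell tables gave the same mean for every gene, so those 30 libraries were fitted jointly and no level can be given for CAFs and tumor cells apart. In bulk samples, fewer cells of a type and less RNA per cell cannot be told apart.

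Markers were read beside the sorts. In the joint CAF and tumor cell fit, the fibroblast markers Col1a1 and Pdgfra had mean normalized counts of 46777 and 12489, and the T cell markers Cd3e and Cd8b1 had 2.24 and 1.06. In the CD8 T cell response fit Cd3e and Cd8b1 had means of 24298 and 43081, but 12 macrophage markers summed to 80085 beside 179283 for 6 T cell markers, and Col1a1 had a mean of 1078. Transcripts of other cell types were thus present in the CD8 T cell libraries, and their part in the MMP and TIMP values below was not tested.

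The promoters of the genes are shown first because 4 of the MMPs lie in 1 cluster and carry the same short sequence. In the GENCODE annotation of GRCm38, the protein-coding genes Mmp13, Mmp12, Mmp1b, Mmp3 and Mmp10 follow each other on chromosome 9, with Mmp8 next, and Mmp1a, annotated as a polymorphic pseudogene, lies between Mmp3 and Mmp10. RefSeq promoter windows of build GRCm38.p6, from 250 bases before to 50 bases after an annotated start, were at hand for 8 of the 10 genes, in 9 windows because Mmp12 has 2 starts. The letters of the AP-1 motif, TGAGTCA or its reverse complement TGACTCA, were searched on both strands. They occurred in the windows of Mmp3, Mmp10, Mmp12 (second start) and Mmp13, against 5.2% of all 32851 windows. Below are the 90 bases before the start of each of these windows and of Timp1, the gene with the most calls, 5′ to 3′ on the coding strand, with the AP-1 letters in capitals.
Mmp13, chr9:7272424-7272513, + strand: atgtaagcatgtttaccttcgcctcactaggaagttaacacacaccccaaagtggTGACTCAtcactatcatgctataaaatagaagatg
Mmp12, second start, chr9:7347284-7347373, + strand: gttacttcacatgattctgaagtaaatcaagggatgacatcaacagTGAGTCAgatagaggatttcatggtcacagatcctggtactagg
Mmp3, chr9:7445732-7445821, + strand: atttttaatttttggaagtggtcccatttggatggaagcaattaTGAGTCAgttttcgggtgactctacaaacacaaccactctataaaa
Mmp10, chr9:7502252-7502341, + strand: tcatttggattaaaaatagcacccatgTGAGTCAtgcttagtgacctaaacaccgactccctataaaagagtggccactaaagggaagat
Timp1, chrX:20870076-20870165, + strand: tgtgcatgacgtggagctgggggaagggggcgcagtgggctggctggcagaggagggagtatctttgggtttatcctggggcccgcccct

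The AP-1 letters began 35 bases before the start in Mmp13, 44 in Mmp12, 46 in Mmp3 and 63 in Mmp10. The same 4 genes held the TATA box letters TATAAA or their reverse complement TTTATA, as did 13.6% of all windows; they began 16, 7 and 29 bases before the start in Mmp13, Mmp3 and Mmp10 and 5 bases after it in Mmp12. The windows of Mmp14, Timp1, Timp2 and Timp3 and the first start of Mmp12 held neither. An AP-1 variant, TGAGTAA or TTACTCA, was present in Timp1, where it began 27 bases after the start, and in 2.68% of all windows. Letters of an interferon-stimulated response element, GAAANNGAAA or TTTCNNTTTC, were found only in Mmp13 among the 9 windows, 146 bases before the start, and in 3.44% of all windows. No match of 1 motif overlapped that of another. A match is a run of letters and not a measured binding site.

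**Figure D1:**
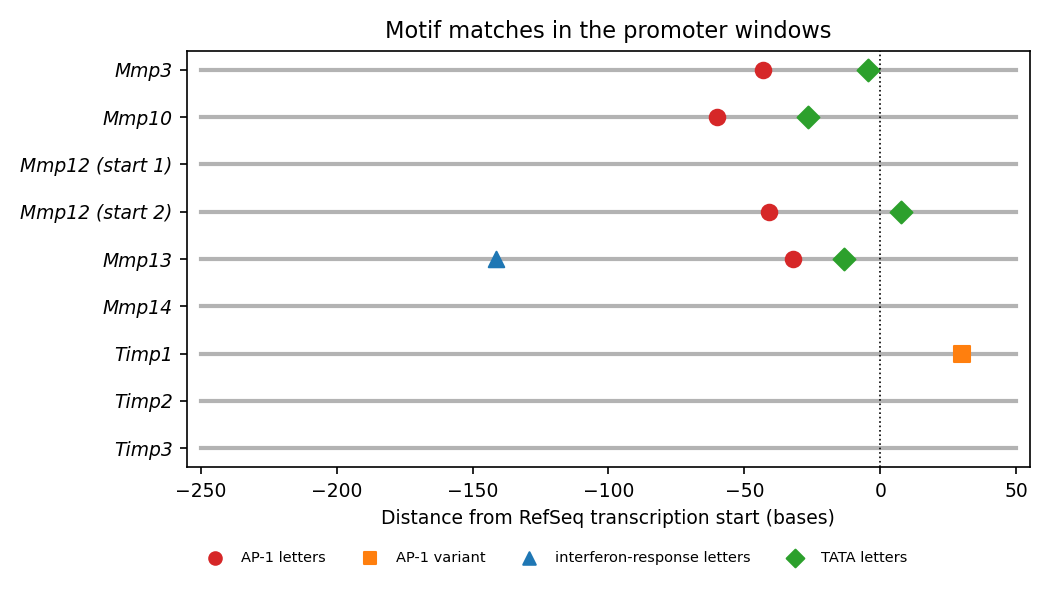
Position of motif letters in the 9 RefSeq promoter windows of 8 genes, in bases from the annotated start (dotted line). Circles mark AP-1 letters, squares the AP-1 variant, triangles the interferon-response letters and diamonds TATA letters; circles stand 35 to 63 bases before the start in Mmp3, Mmp10, Mmp12 and Mmp13 and in no other window.

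Levels were compared between genes as the mean normalized count per kb of exon, with the exons of all annotated transcripts of a gene merged. That length was 7237 bases for Mmp12 and 8144 for Timp3, beside 1801 for Mmp3 and 1722 for Mmp10. A gene whose reads come mainly from a shorter transcript therefore stands too low in these orders. In the joint CAF and tumor cell fit Timp2 was highest, at 7967 per kb, followed by Mmp2 (5889), Timp1 (5348), Mmp3 (4318), Mmp14 (2921), Mmp10 (2703) and Mmp9 (1787). Mmp13 was lower (384), and Mmp12 (29.9) and Timp3 (26.4) were lowest. The means of Timp2, Mmp2 and Mmp14 exceeded those of 99.5%, 99% and 98.8% of the genes whose mean was 10 or more. These are single means over 30 libraries with no spread, so it cannot be said whether neighbours in this order differ beyond their spread.

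In the CD8 T cell response fit the order per kb was Timp2 (516), Mmp9 (399), Timp1 (295), Mmp14 (221), Mmp12 (113), Mmp13 (87.8), Mmp2 (37.9), Mmp10 (28.3), Mmp3 (26.4) and Timp3 (5.58). Mmp9, an enzyme that neutrophils store in granules and macrophages secrete, thus stood above Timp1 and Mmp14 here and below them in the joint fit. In the antibody fit Mmp14 was first (170) and Mmp3 had a mean normalized count of only 8.73. The fits were normalized separately, so levels were not compared between them.

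**Figure D2:**
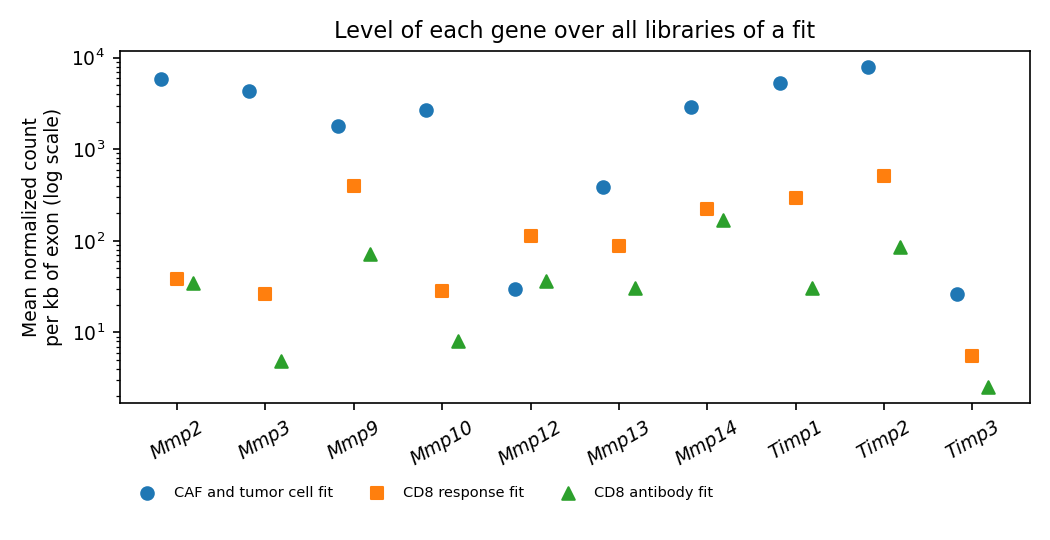
Mean normalized count per kb of exon (log scale) of each gene over all libraries of the CAF and tumor cell fit (circles), the CD8 response fit (squares) and the CD8 antibody fit (triangles), with no error because 1 mean is given per fit. Timp2 is highest per kb in the first 2 fits and Timp3 lowest in all 3.

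The library kit does not keep strand, so reads of genes that overlap on opposite strands cannot be told apart. Syn3 lies opposite Timp3 and shares 21.3% of its exon bases, and Mmp1b lies opposite Mmp12 and shares 2.17%. Timp1 overlaps Syn1 on the opposite strand and shares no exon base with it. Of the 50-base words of Mmp3 and Mmp10 transcripts, 140 were common to both genes, or 8.39% and 8.37% with other matches included, so a small part of their reads could have been counted for either.

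Across 100 pairs of a gene and a comparison, 5 were called, and they fell on 4 genes in 3 comparisons, all of them responding against untreated tumors. In CAFs, 2 of 10 were called, both higher in responding tumors, where 12.2% of 18662 genes were called and 3.9% were called higher. In tumor cells 1 of 10 was called, higher, against 6.59% of genes called and 2.89% called higher. In CD8 T cells 2 of 10 were called, 1 higher and 1 lower, against 17.4% of genes called, 9.17% higher and 8.28% lower. Counted in either direction, each of these counts lies within 1 gene of the number that the share of all genes would give for 10.

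In the other 7 comparisons no gene of the 10 was called by DESeq2. Counts at an unadjusted p-value under 0.05 are given beside the share of all genes with such a p-value. For nonresponding against untreated tumors they were 4 of 10 in CAFs (6.13% of genes, and 3.19% called), 2 of 10 in tumor cells (4.53%, and 0.777% called) and 0 of 10 in CD8 T cells (6.08%, and 1.66% called). For responding against nonresponding tumors they were 2 of 10 in CAFs (7.3%, and 1.91% called), 2 of 10 in tumor cells (6.25%, and 0.736% called) and 2 of 10 in CD8 T cells (7.79%, and 1.22% called). For anti-IFNAR against IgG the count was 4 of 10 (4.74%, and 0.981% called). The unadjusted shares were taken over every gene with a p-value. These were 31966 genes in the joint fit, 30311 in the CD8 response fit and 30048 in the antibody fit. Only 13872, 15260 and 13685 of them had a mean of 10 or more, as did all 10 genes except Mmp3 in the antibody fit. No share was taken over those more abundant genes alone, so an excess over them cannot be read from these counts.

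The signs of the fold changes were uneven. In CAFs of responding and of nonresponding tumors, and in tumor cells of responding tumors, all 10 log2 fold changes against untreated were above 0, with medians of 0.28, 0.40 and 0.27. Over genes whose mean was 10 or more, 38.2%, 49.9% and 33.7% were above 0 in these comparisons, with medians of -0.19, 0.00 and -0.24, so all 10 values in each stayed above 0 after that median was taken off. In tumor cells of nonresponding tumors 7 of 10 were above 0. In CD8 T cells 7 of 10 were above 0 in responding tumors (median 0.19) and 2 of 10 in nonresponding tumors (median -0.12), against a median of 0.01 and -0.01 over genes. The responding and nonresponding comparisons of a cell type share the same untreated libraries.

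Cell type markers moved in the 3 comparisons in which all 10 values were above 0. Of 9 fibroblast markers 8 were above 0 in CAFs of responding tumors (median 0.73) and 9 in CAFs of nonresponding tumors (median 0.94), and Col1a1, the main fibrillar collagen chain, was called higher in both (1.51, adjusted p = 0.00714, and 1.64, adjusted p = 0.00293). In tumor cells of responding tumors 6 of 9 were above 0 (median 0.46) and none was called. All 12 macrophage markers were above 0 in each of the 3, with medians of 2.79, 1.41 and 1.14. Of 6 epithelial markers 5 were above 0 in tumor cells of responding tumors (median 2.11), and 2 and 1 in CAFs of responding and nonresponding tumors. None of the 6 was called, and only 1 had an adjusted p-value in each comparison, although 5 had a mean of at least 10. Most values behind the median of 2.11 thus have no adjusted p-value, and it cannot be read as a tested shift. Of 5 endothelial markers 0, 1 and 1 were above 0 in the 3 comparisons (medians -1.30, -0.17 and -0.63). Kdr was called lower in CAFs of responding tumors. The part of these cells in the 10 values was not tested.

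**Figure D3:**
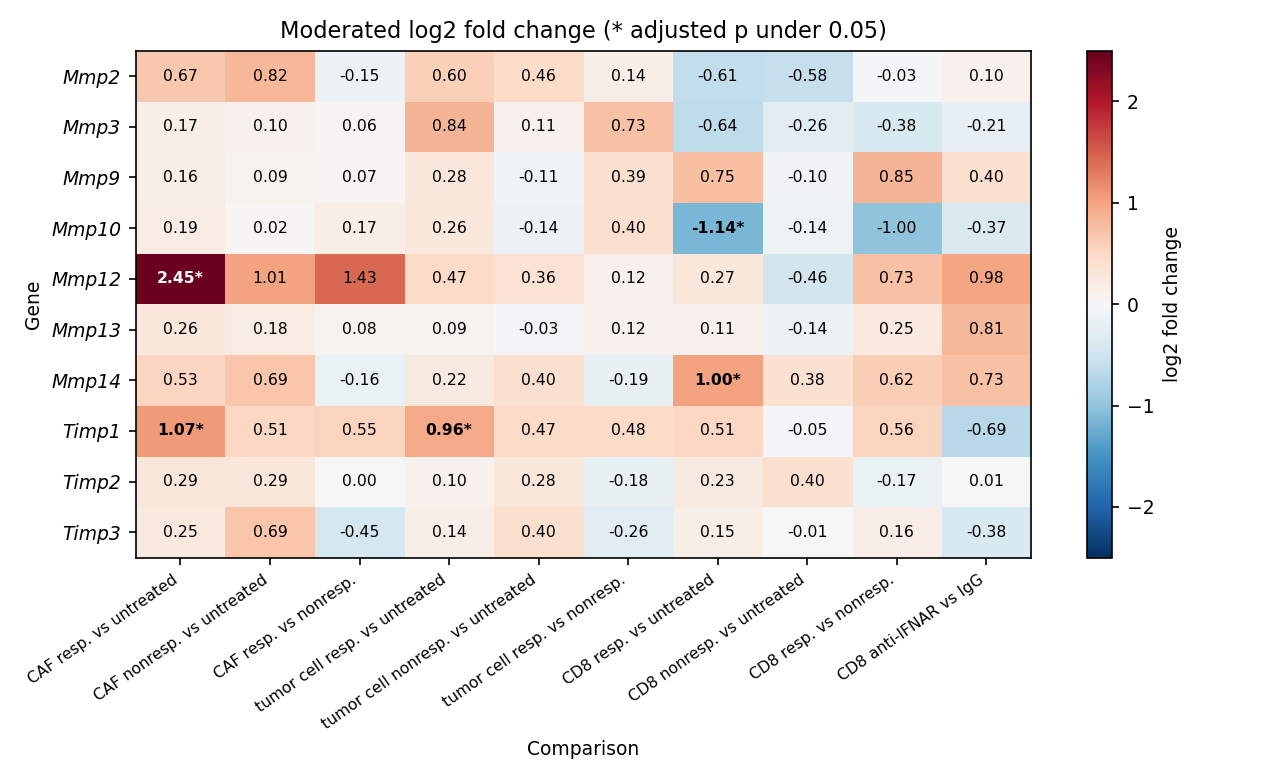
Moderated log2 fold change of the 10 genes (rows) in the 10 comparisons (columns), red above 0 and blue below, with an asterisk and bold type where the adjusted p-value is under 0.05. The 5 marked cells are Timp1 and Mmp12 in CAFs, Timp1 in tumor cells, and Mmp10 and Mmp14 in CD8 T cells, all of responding against untreated tumors.

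Timp1, a secreted inhibitor of most soluble MMPs, was higher in responding tumors in both CAFs and tumor cells. In CAFs its log2 fold change over untreated was 1.07, or 2.1-fold (approximate SE 0.25, Wald statistic 4.24, adjusted p = 0.000841), which ranked it 493rd of 18662 genes by the size of the statistic. In tumor cells it was 0.96, or 1.94-fold (approximate SE 0.25, Wald statistic 3.80, adjusted p = 0.00652). Relative to the median of all genes, these values were 1.25 and 1.19. Macrophage markers were higher in the same tables, with 7 of 12 called in CAFs and 3 of 12 in tumor cells, and their part in the Timp1 values was not tested. Values in nonresponding tumors were 0.51 in CAFs (adjusted p = 0.304) and 0.47 in tumor cells (adjusted p = 0.611), and were not called. The direct difference of responding from nonresponding tumors was 0.55 in CAFs (p = 0.0219, adjusted p = 0.274) and 0.48 in tumor cells (p = 0.0451, adjusted p = 0.444), so it did not pass the test. Timp1 in CD8 T cells was 0.51 in responding tumors (adjusted p = 0.45), -0.05 in nonresponding tumors and -0.69 with anti-IFNAR (p = 0.0792), none of them called.

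The spread that these statistics imply for Timp1 can be read back for a single library. Divided by the root of the summed inverse group sizes, the approximate SE gave 0.37 to 0.38 on the log2 scale in all 3 contrasts of CAFs and all 3 of tumor cells. For Mmp14 the same quantity was 0.36 to 0.37. For Mmp12 it was 0.99 to 1.15, so a change of equal size in Mmp12 carried a far smaller statistic. DESeq2 fits a single spread per gene over all jointly fitted libraries. Near-equal values across contrasts therefore do not show that CAFs and tumor cells had equal spread. In the CD8 T cell response fit the quantity was 0.59 to 0.62 for Mmp14. It was uneven there for Timp1 (0.32 to 0.70) and Mmp10 (0.51 to 1.11). In tumor cells of responding against untreated tumors Timp3 gave 15.2, where its Wald statistic was 0.014. The approximate SE is thus a rough guide in the CD8 T cell fit and where a statistic is near 0.

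Mmp12, an elastase known mainly from macrophages, had the largest fold change of the 10 genes in any comparison. In CAFs of responding tumors it was 2.45 on the log2 scale, or 5.45-fold (approximate SE 0.68, Wald statistic 3.59, adjusted p = 0.00638), and 2.63 relative to the median of all genes. In nonresponding tumors it was 1.01 (adjusted p = 0.641), and the direct difference was 1.43 (p = 0.0289, adjusted p = 0.312). In tumor cells it was 0.47 and 0.36 in responding and nonresponding tumors (adjusted p = 0.778 and 1). Its CD8 T cell values were 0.27, -0.46 and 0.73 in the 3 response comparisons, none called, and 0.98 with anti-IFNAR (p = 0.00843, adjusted p = 0.295).

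Macrophage markers were read beside Mmp12 in the same tables. In CAFs of responding tumors 7 of 12 such markers were called higher and none lower (median log2 fold change 2.79), led by C1qa (3.72), Fcgr1 (4.75), C1qc (3.23) and Ms4a7 (3.41), while Adgre1 was 1.03 and was not called. In CAFs of nonresponding tumors 3 of 12 were called higher (median 1.41), and in tumor cells 3 of 12 in responding tumors (median 1.14) and 1 of 12, Fcgr1, in nonresponding tumors (median 0.98), where Mmp12 was 0.36. Of all genes 3.19%, 6.59% and 0.777% were called in these comparisons, in that order. In CD8 T cells of nonresponding tumors 10 of 12 were above 0 (median 0.23, none called), and Mmp12 was -0.46 (adjusted p = 0.675). With anti-IFNAR, where 0.981% of all genes were called, 3 of 12 were called higher, Lyz2 (1.15), C1qb (1.14) and Csf1r (0.99), with all 12 above 0. The 12 markers summed to a mean of 4079 in the joint fit, where the least abundant, Itgam, had 34.5 and Mmp12 had 216. The CAF gate excluded CD45+ cells, and the part of macrophage RNA in the Mmp12 values was not tested.

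Mmp14, which sits in the cell membrane and activates the proenzyme of Mmp2 together with Timp2, was higher in CD8 T cells of responding tumors. Its log2 fold change was 1.00, or 2-fold (approximate SE 0.37, Wald statistic 2.7, adjusted p = 0.043). In nonresponding tumors it was 0.38 (adjusted p = 0.793), and the direct difference was 0.62 (p = 0.123). In CAFs Mmp14 was 0.53 in responding tumors (p = 0.031, adjusted p = 0.148) and 0.69 in nonresponding tumors (p = 0.00189, adjusted p = 0.0569), the nearest of all uncalled values to the threshold, with a direct difference of -0.16. In tumor cells it was 0.22 and 0.40. With anti-IFNAR it was 0.73 (p = 0.0192, adjusted p = 0.436). All 12 macrophage markers were above 0 there (median 0.89), and their part in this value was not tested.

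The CD8 T cell call of Mmp14 was the least firm of the 5, since it was lost when p-values were adjusted over every gene with a p-value. Several markers of other cell types rose in the same comparison. Of 8 neutrophil markers 5 were called higher, with log2 fold changes of 2.28 for Retnlg, 1.84 for Csf3r, 1.60 for S100a8 and 1.72 for S100a9. Of 5 endothelial markers 4 were called higher, among them Pecam1 (0.70), and of 12 macrophage markers 1 was called, Itgam (1.09), with all 12 above 0 (median 0.50) and 5 at an unadjusted p-value under 0.05. None of 9 fibroblast markers was called (median -0.38), and Col1a1 was -1.01 (adjusted p = 0.0616). None of 6 T cell markers was called (median 0.03). The part of these cells in the Mmp14 value was not tested.

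Mmp10, a stromelysin, was the only gene of the 10 called lower. Its log2 fold change over untreated in CD8 T cells of responding tumors was -1.14, or 0.454-fold (approximate SE 0.33, Wald statistic -3.43, adjusted p = 0.00735). In nonresponding tumors it was -0.14 (adjusted p = 0.975), and the direct difference of responding from nonresponding was -1.0 (p = 0.0024, adjusted p = 0.0961). Its mean in that fit was 48.7 normalized counts, above that of 22.2% of the genes whose mean was 10 or more. Mmp10 is better known from epithelium, fibroblasts and myeloid cells than from T cells, and the 9 fibroblast markers in this sort had a summed mean of 6692. In responding over untreated tumors, 2 of these 9 were above 0 (median -0.38, none called). Macrophage and epithelial markers had medians of 0.50 and 0.16 in that comparison. The part of these cells in the Mmp10 value was not tested. In CAFs and tumor cells, where its mean was 4654, Mmp10 lay between -0.14 and 0.40 in all 6 comparisons and was not called. With anti-IFNAR it was -0.37 at a mean of 14.

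**Figure D4:**
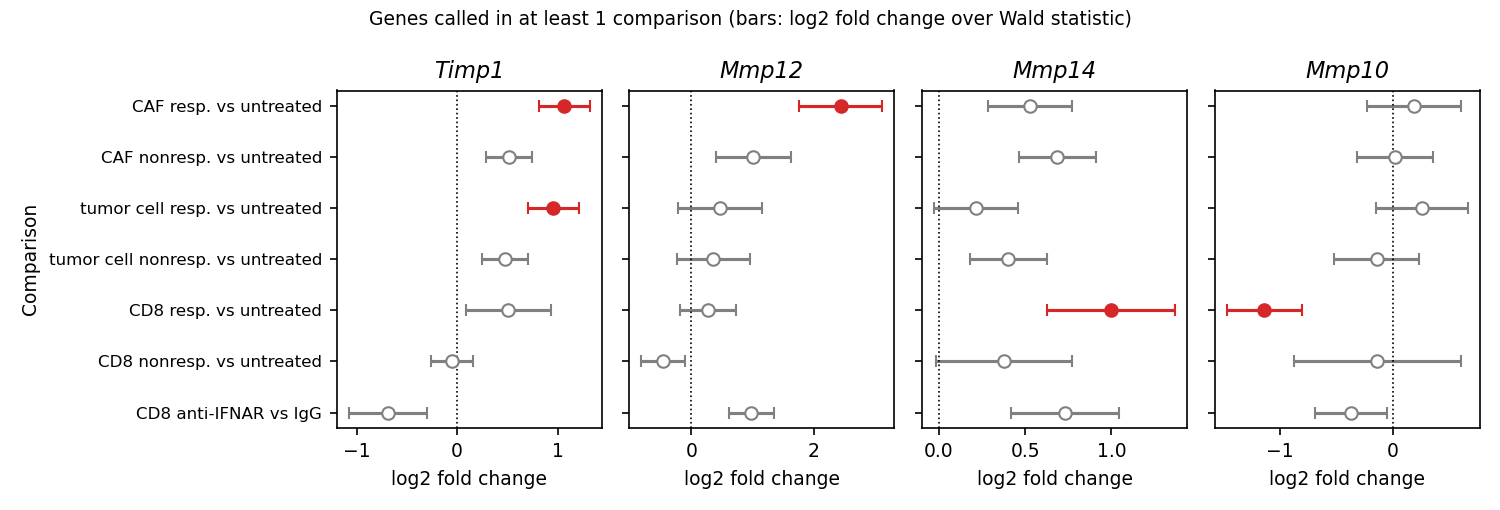
Log2 fold change (x axis) of Timp1, Mmp12, Mmp14 and Mmp10 in the 6 comparisons against untreated tumors and in anti-IFNAR against IgG; bars are the log2 fold change over the Wald statistic, an approximate standard error. Filled red points are called: Timp1 at 1.07 and 0.96, Mmp12 at 2.45, Mmp14 at 1.00 and Mmp10 at -1.14.

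Mmp3, the stromelysin that cuts proteoglycans and activates other proMMPs, had its largest value in tumor cells. Its log2 fold change there was 0.84 in responding tumors (p = 0.00606, adjusted p = 0.0731), 0.11 in nonresponding tumors and 0.73 between them (p = 0.0135, adjusted p = 0.266). In CAFs the same 3 comparisons gave 0.17, 0.10 and 0.06. The difference between the cell types was itself not called (p = 0.119, adjusted p = 0.828 for responding against untreated). Mmp3 in CD8 T cells was -0.64, -0.26 and -0.38, and with anti-IFNAR -0.21 (p = 0.0331, adjusted p = 0.535) at a mean of 8.73.

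Of the gelatinases, which cut denatured collagen and basement membrane collagen, Mmp2 had its largest values in CAFs. It was 0.67 in responding tumors (p = 0.0648) and 0.82 in nonresponding tumors (p = 0.0121, adjusted p = 0.205), and neither was called. Its values in tumor cells were 0.60 and 0.46, and in CD8 T cells -0.61 and -0.58 (adjusted p = 0.337 and 0.65). Mmp9 lay between -0.11 and 0.39 in the 6 CAF and tumor cell comparisons. Mmp9 in CD8 T cells was 0.75 in responding over untreated tumors (p = 0.0491, adjusted p = 0.164), -0.10 in nonresponding tumors and 0.85 between them (p = 0.0299, adjusted p = 0.312), where 3 of 8 neutrophil markers were called higher, and these cells' part in Mmp9 was not tested.

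Mmp13, which cuts fibrillar collagen, was 0.26 at most in the 9 comparisons without antibody, with the lowest value -0.14. With anti-IFNAR it was 0.81 (p = 0.0348, adjusted p = 0.552). It is the gene whose promoter window held the interferon-response letters shown above, and no relation to that match was tested. All 12 macrophage markers were above 0 with anti-IFNAR (median 0.89), 10 of them at an unadjusted p-value under 0.05. Their part in the Mmp13 value was not tested.

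Timp2 and Timp3 were called nowhere. Timp2, the most abundant per kb in the joint fit, was 0.29 in CAFs of both responding (p = 0.07) and nonresponding tumors (p = 0.0443, adjusted p = 0.427), and 0.10 and 0.28 in the matching tumor cells. With an approximate SE of 0.14 to 0.16, these were the most precisely measured values of the set against untreated tumors in that fit. Timp2 in CD8 T cells was 0.23 and 0.40, with approximate SEs of 0.34 and 0.37. Timp3 ranged from -0.45 to 0.69 over all 10 comparisons with no p-value under 0.05, at a mean of 215 in the joint fit and 45.5 in the CD8 T cell response fit. A p-value that misses the threshold does not show that these genes stayed level.

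CAFs and tumor cells were then compared directly, gene by gene, by how far their Wald statistics for the same contrast lay apart. None of the 10 genes was called different between the cell types in any of the 3 contrasts. For responding against untreated tumors 32 of 13872 genes differed (0.231%, and 7.27% had an unadjusted p-value under 0.05), for nonresponding against untreated 7 (0.0505%, and 0.447%), and for responding against nonresponding 29 (0.209%, and 6.8%). Mmp12 gave the smallest p-value of the set, for responding against untreated tumors (2.45 in CAFs, 0.47 in tumor cells, p = 0.0405, adjusted p = 0.639). Timp1 gave 1.07 and 0.96 in the same contrast (p = 0.757). The test treats the libraries of both cell types as independent, although their labels carry the same tumor numbers, and for nonresponding tumors the share of 0.447% is under what a threshold of 0.05 would pass among unchanged genes of independent libraries.

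The genes around these enzymes were read from 6 lists. For responding against untreated tumors their counts stand beside 12.2% of all genes called in CAFs (3.9% higher), 6.59% in tumor cells (2.89% higher) and 17.4% in CD8 T cells (9.17% higher). Among 17 further genes of the family (other MMPs and Timp4), which include the neutrophil collagenase Mmp8, 1 was called in CAFs of responding tumors, Mmp19 (log2 fold change 2.32, adjusted p = 0.00265), and 1 in CD8 T cells of responding tumors, Mmp15 (0.56, adjusted p = 0.00797), both higher. Mmp8 itself was 0.99 in those CD8 T cells, at a mean of 568, and was given neither a p-value nor an adjusted p-value there. Mmp15, at a mean of 11.3, was also 0.60 in CD8 T cells of nonresponding tumors (Wald test p = 0.000914, with no adjusted p-value). Its difference of responding from nonresponding tumors was -0.04 (adjusted p = 0.964). The other 8 comparisons called none of the 17. Of 17 ADAM and ADAMTS proteases, Adam15 was higher in CAFs (1.37) and in tumor cells (0.89) of responding tumors. Adam17, which sheds tumor necrosis factor, was higher in CD8 T cells of responding tumors (0.30) and Adamts10 lower (-0.70), and in CAFs Adamts12 was lower in responding than in nonresponding tumors (-2.72, at a mean of 9.18).

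In the plasminogen system of 11 genes, whose product plasmin activates several proMMPs, Plat (tissue plasminogen activator) was higher in CAFs of responding tumors (0.91) and S100a10, a cell surface receptor of plasminogen, was lower in CAFs of both responding (-1.29) and nonresponding tumors (-1.10). The serpin Serpine2 was higher in CD8 T cells of responding (2.54) and nonresponding tumors (1.83), and the urokinase receptor Plaur was higher in responding tumors (1.29). The tumor cell and anti-IFNAR tables called none of the 11.

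Activators, cofactors and binding partners made a list of 16. In CAFs of responding tumors 4 of 16 were called (12.2% of all genes, and 3.9% higher), all higher: the thrombospondins Thbs2 (1.94) and Thbs1 (1.28), the proteoglycan Sdc1 (1.00) and the integrin Itgav (0.79). Thbs2 (1.81) and Thbs1 (1.34) were also higher in CAFs of nonresponding tumors, and Thbs2 in tumor cells of responding (1.19) and nonresponding tumors (1.31). Furin (1.25), the convertase that cuts the propeptide of Mmp14, was higher in CD8 T cells of responding tumors beside Mmp14 itself, as were Cd44 (0.68), which can dock Mmp9 at the cell surface, and Thbs1 (1.18). With anti-IFNAR only Cav1 was called (-1.38).

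AP-1 genes were called in CD8 T cells. In responding against untreated tumors 7 of 8 were called higher, where 9.17% of all genes were (list median 1.14, against 0.01 over genes), led by Fosb (1.49), Jun (1.60), Fos (1.72) and Atf3 (1.68), and Fosl1 (0.26) was not called. Against nonresponding tumors 4 of 8 were called higher, where 1.22% of all genes were called in either direction: Fosb (1.23), Jun (1.41), Fos (1.16) and Junb (0.81). In the comparison with untreated tumors 5 of 8 neutrophil and 4 of 5 endothelial markers were also called higher. Against nonresponding tumors 3 of 8 neutrophil markers (Retnlg, S100a9 and S100a8) and 1 of 5 endothelial markers (Tek) were called higher. The part of these cells in the AP-1 values was not tested. In CAFs and tumor cells none of the 8 was called in any of the 6 comparisons, and the difference from CD8 T cells, which were fitted separately, was not tested. Of the 4 MMPs with AP-1 letters before the start, Mmp10 was called lower in the CD8 T cells of responding tumors (-1.14), and Mmp3 (-0.64), Mmp12 (0.27) and Mmp13 (0.11) were not called there.

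Among 13 cytokines and receptors that are known to induce MMPs or TIMPs, 6 were called higher in CAFs of responding tumors, where 3.9% of all genes were (list median 1.04, against -0.19 over genes), led by Osmr (2.08), Tnfrsf1a (1.04), Tnf (3.48) and Il1rn (3.24). The first of these, the receptor of oncostatin M, a classical inducer of Timp1, was also called between responding and nonresponding CAFs (0.99, adjusted p = 0.0496). In CAFs of nonresponding tumors, where 3.19% of all genes were called in either direction, 2 were higher, Tnfrsf1a (0.63) and Osmr (1.09). In tumor cells of responding tumors 5 were higher, led by Tnfrsf1a (0.59), Osmr (1.08), Osm (1.90) and Il1a (2.01). In CD8 T cells of responding tumors 7 were higher, led by Il1rn (2.04), Tnf (1.30), Il1b (1.82) and Il1a (1.61). Of the list, 3 were higher there than in nonresponding tumors, Il1b (1.73), Tnf (0.98) and Il1rn (1.52), where 1.22% of all genes were called. Myeloid cells are known to make Tnf, Il1a, Il1b and Il1rn, and some of their markers rose in the same comparisons with untreated tumors. Of 12 macrophage markers 7 were called higher in the CAFs (median 2.79) and 3 in the tumor cells (median 1.14). In the CD8 T cells only 1 of these 12 was called (median 0.50), beside 5 of 8 neutrophil markers (median 1.61). Neutrophil markers did not rise as a list in the CAFs (0 of 8 called, median -0.01) or the tumor cells (1 of 8, median 0.008). Most of the 8 were scarce there, and just 2 reached a mean of 10. Between responding and nonresponding tumors 3 of 8 neutrophil markers were called higher in the CD8 T cells (median 1.32). None of 12 macrophage markers was called there (median 0.41), and 1 of 12 was called higher in the CAFs (median 0.99). The part of these cells in this list was not tested. No gene of this list was called lower in any comparison, and none at all with anti-IFNAR.

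**Figure D5:**
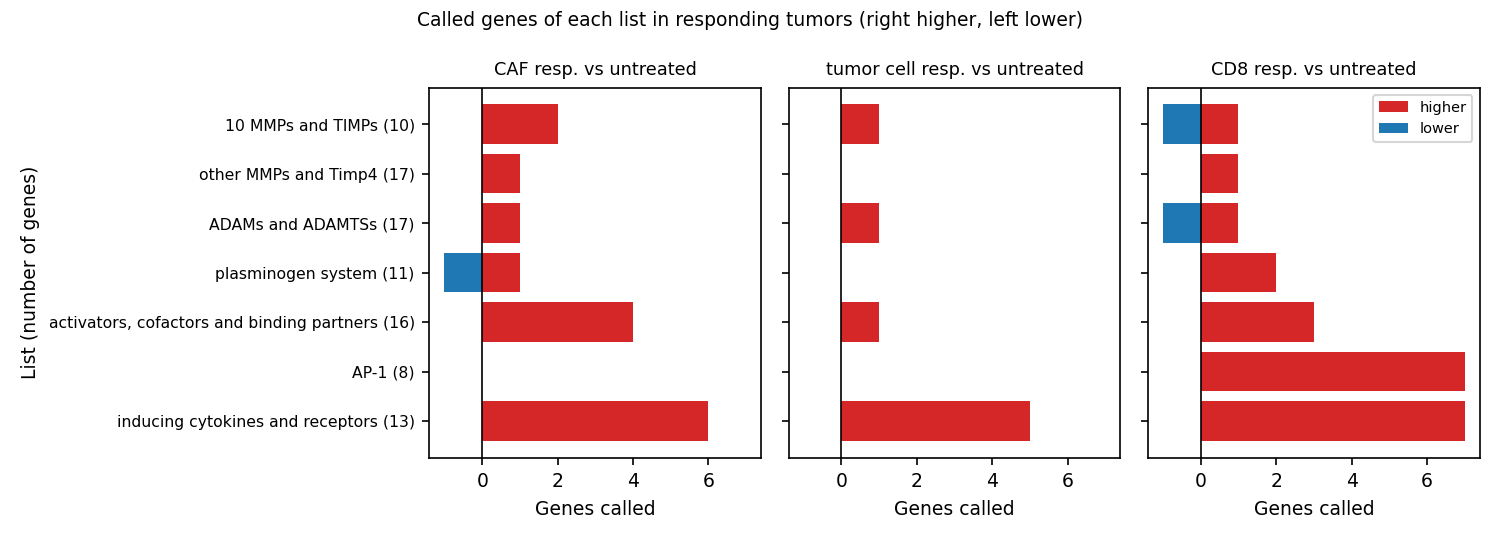
Number of genes called higher (right, red) and lower (left, blue) in responding against untreated tumors for the 10 MMPs and TIMPs and 6 further lists, with the size of each list in brackets, in CAFs, tumor cells and CD8 T cells. AP-1 genes are called in CD8 T cells alone (7 of 8), and inducing cytokines and receptors in all 3 (6, 5 and 7 of 13).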

How the data were processed

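CAFs, tumor cells and CD8 T cells were sorted and profiled by RNA sequencing in 56 samples, for which the authors deposited 10 DESeq2 tables. The processing notes of the authors (the submitters) name fastp 0.20.1, STAR 2.7.6a, DESeq2 1.28.1, R 4.0.2 and genome mm39, with no role for each. The mean signal, as deposited, is the authors' normalized read count averaged over every library that was fitted. As deposited, the log2 fold change had been moderated toward 0, and the deposited Wald statistic, a score from DESeq2, had not. The deposited p-value was checked to be the 2-sided normal p of that statistic, and the adjusted p-value is the authors' Benjamini-Hochberg value.

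Signs were turned in 4 tables that put untreated first. Their groups A and B were taken as responding and nonresponding, as the study's CAF figure names them, and the same letters were assumed for tumor cells. The precision of each library is unknown. Differences between CAFs and tumor cells used the difference of Wald statistics over its SD, with a 2-sided normal p adjusted over genes with a mean of at least 10. Directions of called genes follow the Wald statistic. Exon lengths and overlaps came from GENCODE vM21 (GRCm38), and promoters from RefSeq (GRCm38.p6). All 10 genes are named in every comparison. Of pathway lists, called genes are named up to 4 per direction by Wald statistic, and of marker lists the defining markers, with others named after their values were seen. The 10 genes and all lists were chosen with earlier results of these data known. Alternatives were other thresholds, other gene sets for the adjustment, a minimum fold change and centring. Python 3.11.15, pandas 2.3.3 and scipy 1.17.1 were used.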

Additional observations from a re-analysis of the deposited data

How the results depend on the processing

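No paired analysis was possible because the tables hold no value per sample, and for the same reason no replicate could be left out, no other normalization could be tried, and depth sets a limit that cannot be stated. The number of the 10 genes called moved in these cases. In CAFs of nonresponding against untreated tumors it went from 0 to 1 (Mmp14) at an adjusted p-value under 0.1 and with the adjustment over genes with a mean of at least 10 or of at least 50. In tumor cells of responding against untreated tumors it went from 1 to 2 (Mmp3 added) at 0.1, and to 0 when a log2 fold change of at least 1 was also asked, since Timp1 had 0.96. In CD8 T cells of responding against untreated tumors it went from 2 to 1 in 4 settings: Mmp14 was lost at 0.01, with the adjustment over every gene with a p-value, and with a log2 fold change of at least 1, and Mmp10 was lost when genes with a mean under 50 were left out, as its own mean is 48.7. In CD8 T cells of responding against nonresponding tumors it went from 0 to 1 (Mmp10) at 0.1. Timp1 and Mmp12 in CAFs were called in all 6 of these settings. After the median of all genes was taken off, 5 values changed sign, none of them called: in responding against nonresponding CAFs Mmp2 became 0.033, Mmp14 0.027 and Timp2 0.19, and in the matching tumor cells Mmp14 became 0.03 and Timp2 0.034. The other 95 values kept their sign. No gene of the 10 differed between CAFs and tumor cells with no filter on the mean, with a mean of at least 50, or with the difference of log2 fold changes, which was chosen after seeing the data.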
